A study of Mus musculus with 2 samples.

Results

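Transcripts of the proteasome genes were measured by RNA sequencing of polyA mRNA from the liver of a single C57BL/6J mouse, an adult female at 10 weeks of age. Proteasome genes were taken as the protein-coding genes whose GENCODE mouse symbol starts with Psma, Psmb, Psmc, Psmd, Psme, Psmf or Psmg, which gave 50 of 21474 protein-coding genes. Of these, 49 code for proteasome subunits, their relatives, activators, an inhibitor or assembly chaperones, and Psmc3ip, a meiotic recombination factor that binds a proteasome subunit, carries the prefix without being one. The liver RNA was sequenced as 2 libraries, labelled technical replicates 1 and 2 of biological replicate 1 and called library 1 and library 2 here, and the labels name no genetic change, treatment or other animal. RNA for both was extracted with a kit for lipid-rich tissue, library 2 is dated May 2015, and a difference between the libraries cannot be told apart from one of date or handling. The expected counts summed to 19525500 in library 2 and 23309905 in library 1. Every mean and SD marked n = 2 below is over these 2 libraries, so it covers technical spread and says nothing of the spread between animals. An SD on the log2 scale given for a group of subunits is taken over its genes within 1 library.

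The proteasome degrades proteins that carry ubiquitin chains. Its core particle is a barrel of stacked rings, with alpha subunits (Psma) at both ends as the gate and beta subunits (Psmb) inside, where Psmb5, Psmb6 and Psmb7 carry the active sites. The regulatory particle caps the barrel: ATPases (Psmc) unfold the substrate and thread it into the core, and the other subunits (Psmd) bind ubiquitin, remove it and hold the particle together. In immune cells, and in other cells after interferon gamma, Psmb8, Psmb9 and Psmb10 replace Psmb5, Psmb6 and Psmb7 in newly built cores, giving the immunoproteasome, which favours peptides that fit major histocompatibility complex class I. Psme1 and Psme2 form a cap that opens the core without ATP, and Psmg1 to Psmg4 help to assemble the rings.

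The 6 active-site subunits are the centre of the comparison of immunoproteasome and constitutive proteasome, and each becomes active when its propeptide is cut off to expose a threonine. The 60 coding bases that start with the threonine codon were read from the GENCODE M21 transcripts (GRCm38) to show how far the members of a pair resemble each other. The threonine codon is in capitals, and each immunoproteasome subunit stands above the constitutive subunit that it replaces.
Psmb8: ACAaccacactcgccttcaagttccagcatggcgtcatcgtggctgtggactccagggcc
Psmb5: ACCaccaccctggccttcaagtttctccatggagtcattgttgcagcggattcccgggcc
Psmb9: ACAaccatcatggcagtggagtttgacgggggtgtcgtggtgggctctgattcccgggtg
Psmb6: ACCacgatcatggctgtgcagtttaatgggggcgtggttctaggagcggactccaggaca
Psmb10: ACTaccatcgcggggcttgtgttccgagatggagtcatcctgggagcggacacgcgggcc
Psmb7: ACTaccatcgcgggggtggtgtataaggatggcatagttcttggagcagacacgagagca
These bases lie in coding exons at chr17:34199302-34199361 on the plus strand for Psmb8, chr14:54616783-54617814 on the minus strand for Psmb5, chr17:34185738-34185797 on the minus strand for Psmb9, chr11:70525885-70525944 on the plus strand for Psmb6, chr8:105937559-105937705 on the minus strand for Psmb10 and chr2:38642243-38643384 on the minus strand for Psmb7. The stretches of Psmb5, Psmb10 and Psmb7 run across an exon junction, and the others lie in 1 exon. Psmb8 and Psmb5 shared 47 of the 60 bases, Psmb10 and Psmb7 shared 43, and Psmb9 and Psmb6 shared 41. Over the aligned coding sequence of the mature proteins the identity was 69.1% for Psmb8 and Psmb5, 64.8% for Psmb9 and Psmb6 and 63.1% for Psmb10 and Psmb7, against 54.5% to 60.1% for combinations that are not pairs. Base composition differed most between Psmb10 and Psmb7: the mature coding sequence held 60.1% G and C in Psmb10 and 48.0% in Psmb7, whereas it was 54.2% in Psmb8 and 55.8% in Psmb5, and 56.6% in Psmb9 and 55.4% in Psmb6.

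The immunoproteasome subunits were lower than the constitutive subunits that they replace, in all 3 pairs and in both libraries. Levels are in TPM, a relative transcript abundance that sums to the same total in both libraries. TPM values are corrected for transcript length, which allows genes to be set beside each other. Comparisons between genes carry 2 limits: the length used differed between the libraries for some genes, and the difference between libraries followed GC content, as described further on. Psmb8 (ENSMUSG00000024338.10) had 32.63 TPM in library 2 and 0.88 TPM in library 1, from 530 expected counts in library 2 and 30 in library 1. Its constitutive counterpart Psmb5 (ENSMUSG00000022193.6), the chymotrypsin-like subunit, had 98.99 TPM in library 2 and 3.06 TPM in library 1, from 1044 counts in library 2 and 48 in library 1. The level ratio of Psmb8 to Psmb5 was 0.330 in library 2 and 0.288 in library 1, although both genes were far lower in library 1. The ratio of their expected counts was 0.508 in library 2 and 0.625 in library 1, and the effective length of Psmb8 was 1053 bases in library 2 and 1490 bases in library 1. On the log2 scale the TPM ratio of Psmb8 to Psmb5 averaged −1.70 ± 0.14 (SD, n = 2).

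The other pairs had the same direction, and the size of their TPM ratio differed more between the libraries. Psmb9 (ENSMUSG00000096727.1) had 13.44 TPM in library 2 and 2.38 TPM in library 1, from 236 counts in library 2 and 20 in library 1. Psmb6 (ENSMUSG00000018286.6), the caspase-like subunit that it replaces, had 175.3 TPM in library 2 and 10.18 TPM in library 1, from 1646 counts in library 2 and 138 in library 1. The TPM ratio of Psmb9 to Psmb6 was 0.0767 in library 2 and 0.234 in library 1, with a mean log2 ratio of −2.90 ± 1.14 (SD, n = 2). The ratio of their expected counts, which involves no length, was 0.143 in library 2 and 0.145 in library 1. The effective length that the deposited tables give Psmb9, which divides its counts, was 1138 bases in library 2 and 369 bases in library 1.

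The ratio of Psmb10 to Psmb7 differed most between the libraries. Psmb10 (ENSMUSG00000031897.8) had 33.77 TPM in library 2 and 0.44 TPM in library 1, from 564 counts in library 2 and 11 in library 1. Psmb7 (ENSMUSG00000026750.5), the trypsin-like subunit, had 145.01 TPM in library 2 and 95.57 TPM in library 1, from 2149 counts in library 2 and 1593 in library 1. Psmb7 was therefore 4.29 times as high as Psmb10 in library 2 and 217 times as high in library 1. The ratio of expected counts of Psmb10 to Psmb7 was 0.262 in library 2 and 0.00691 in library 1. The effective length of Psmb7 was 960 bases in library 2 and 731 bases in library 1, while that of Psmb10 was 1083 and 1087 bases. The protein-coding transcript Psmb7-201 alone had 141.82 TPM in library 2 and 52.78 TPM in library 1. The mean log2 ratio of Psmb10 to Psmb7 was −4.93 ± 4.0 (SD, n = 2), so that its size is not fixed by these libraries. The deposited tables give intervals of posterior TPM whose level is not stated: 29.3 to 34.5 TPM in library 2 and 0.225 to 0.736 TPM in library 1 for Psmb10, and 131 to 144 TPM in library 2 and 86.1 to 98.0 TPM in library 1 for Psmb7.

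Summed over the 3 genes, the immunoproteasome subunits reached 79.84 TPM in library 2 and 3.7 TPM in library 1, and the constitutive ones 419.3 TPM in library 2 and 108.81 TPM in library 1. Immunoproteasome transcripts were thus 16.0% of the catalytic subunit TPM in library 2 and 3.29% in library 1. The sum in library 1 was mostly Psmb7, with 95.57 of the 108.81 constitutive TPM. Within pairs, the immunoproteasome share was 24.8% in library 2 and 22.3% in library 1 for Psmb8 with Psmb5. It was 7.12% in library 2 and 18.9% in library 1 for Psmb9 with Psmb6. For Psmb10 with Psmb7 it was 18.9% in library 2 and 0.458% in library 1. The log2 ratio of the sums was −2.39 in library 2 and −4.88 in library 1, a mean of −3.64 ± 1.76 (SD, n = 2). With 2 technical libraries there is no test of this ratio. In a tissue sample, fewer cells that express these genes and less RNA per cell cannot be told apart. Leukocytes, which express the immunoproteasome, were represented by 10 marker genes, all above 0 in both libraries. These markers lay between 0.36 and 80.52 TPM in library 2 and between 0.06 and 29.21 TPM in library 1, and summed to 271 TPM in library 2 and 58.6 TPM in library 1. Of the 8 with enough counts for the scaled comparison described further on, 5 were 2-fold or more higher and 1 lower in library 2, beside 33.0% higher and 24.0% lower among all genes tested. After subtraction of the dependence on GC content described there, Cd74 at a log2 fold of 1.28 and Clec4f at 1.12 were past 2-fold, and the other 3 of the 5 were not. Their part in the immunoproteasome levels was not tested.

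**Figure D1:**
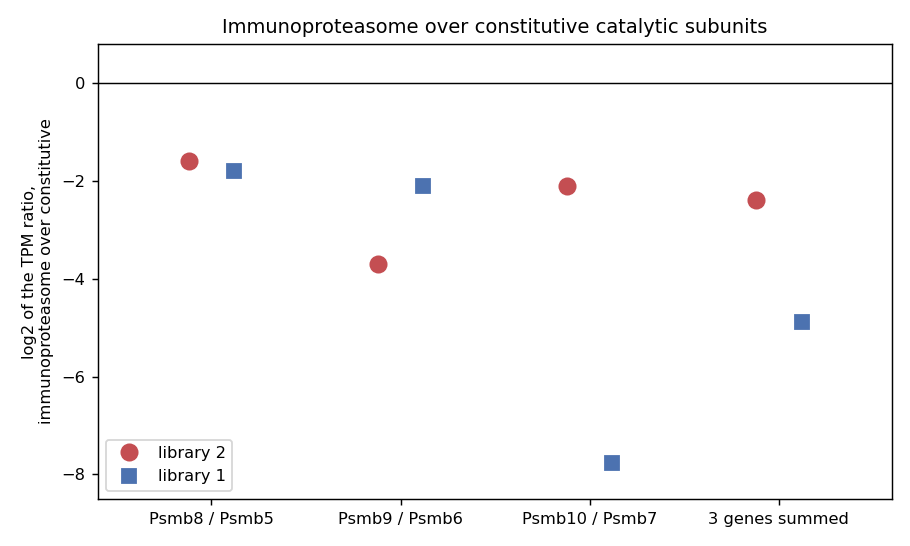
Log2 of the TPM ratio of each immunoproteasome subunit to the constitutive subunit that it replaces, and of the 3 genes summed; circles are library 2, squares library 1, and the line at 0 marks equal levels. All 8 points lie below 0, those of Psmb8 over Psmb5 lie 0.20 apart and those of Psmb10 over Psmb7 lie 5.66 apart.

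The alpha ring was the most abundant group in library 1 and close to the constitutive beta ring in library 2. Its 7 members summed to 902 TPM in library 2 and 775 TPM in library 1. Psma3 was the highest proteasome gene in both libraries, with 180.1 TPM in library 2 and 275 TPM in library 1. Psma4 followed in library 1 with 152.41 TPM, and it had 158.12 TPM in library 2. Psma1, Psma2 and Psma6 had 111.87 to 129.31 TPM in library 2 and 74.94 to 106.53 TPM in library 1. Psma5 was the lowest alpha subunit in library 2, at 69.97 TPM there and 36.91 TPM in library 1. Psma7 stood apart from its ring partners, with 133.85 TPM in library 2 and 23.42 TPM in library 1. Psma8, the form that takes the place of Psma7 in spermatogenic cells, had 0.99 TPM in library 2 and 1.08 TPM in library 1, from 23 counts in library 2 and 37 in library 1.

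The 7 constitutive beta subunits had similar levels in library 2 and very unequal ones in library 1. They ranged between 93.20 TPM (Psmb2) and 175.3 TPM (Psmb6) in library 2, and between 3.06 TPM (Psmb5) and 95.57 TPM (Psmb7) in library 1. Their SD on the log2 scale was 0.34 in library 2 and 1.78 in library 1. Psmb2 had 25.80 TPM in library 1. Of the other subunits without an active site, Psmb1 had 151.61 TPM in library 2 and 79.25 TPM in library 1, Psmb4 had 145.18 TPM in library 2 and 27.41 TPM in library 1, and Psmb3 had 121.14 TPM in library 2 and 8.01 TPM in library 1. Psmb11, which is made in thymic cortical epithelium, had 0 counts in both libraries, and the limit that a count of 0 allows, 3 counts, would be 0.0479 TPM in library 2 and 0.0324 TPM in library 1. It lies 3410 bases from Psmb5 on chromosome 14.

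The ATPases of the regulatory particle showed the same narrowing in library 2. All 6 lay between 62.27 TPM (Psmc2) and 94.27 TPM (Psmc3) in library 2, an SD of 0.23 on the log2 scale, the smallest of the 4 groups of subunits. In library 1 they ranged between 13.67 TPM (Psmc5) and 119.86 TPM (Psmc6), with an SD of 1.12. Psmc6 was the only ATPase with a higher TPM in library 1, as it had 81.50 TPM in library 2. Psmc1 had 88.90 TPM in library 2 and 47.62 TPM in library 1, and Psmc4 had 74.65 TPM in library 2 and 16.95 TPM in library 1.

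The other 11 subunits of the regulatory particle had a median of 57.08 TPM in library 2 and 35.16 TPM in library 1, below the medians of both rings in library 2 (129.31 TPM for alpha and 145.01 TPM for constitutive beta) but not below that of the beta ring in library 1 (25.80 TPM). Psmd14, the deubiquitinase that removes ubiquitin chains, was the lowest in library 2 at 43.50 TPM and the highest in library 1 at 82.91 TPM. Psmd7, its catalytically inactive partner, was higher in library 2, at 50.69 TPM there and 23.08 TPM in library 1. Psmd4, a ubiquitin receptor, had 84.02 TPM in library 2 and 5.59 TPM in library 1. The large scaffold subunits Psmd1 and Psmd2 also parted: Psmd1 had 53.04 TPM in library 2 and 46.06 TPM in library 1, and Psmd2 had 79.13 TPM in library 2 and 21.19 TPM in library 1. Among the lid subunits, Psmd3 was furthest from its partners in library 1, with 57.08 TPM in library 2 and 6.37 TPM in library 1, while Psmd6, Psmd8, Psmd11, Psmd12 and Psmd13 had 53.30 to 93.32 TPM in library 2 and 24.80 to 70.69 TPM in library 1. The 93.32 TPM of Psmd13 in library 2 include 40.41 TPM from a transcript of 123 bases that held 1.31 expected counts over an effective length of 2.11 bases, and the gene had 52.91 TPM without it.

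In library 2 the inhibitor, the chaperones and the activators other than Psme1 and Psme2 lay below all constitutive subunits of rings and regulatory particle. Psme2 had 118.21 TPM in library 2 and 49.39 TPM in library 1, and Psme1, its partner in the interferon-inducible cap, had 91.08 TPM in library 2 and 48.22 TPM in library 1. Psme3, the nuclear relative, was lower in TPM, with 31.88 TPM in library 2 and 37.16 TPM in library 1. Psme1 and Psme2 together had 6.56 times the TPM of Psme3 in library 2 and 2.63 times in library 1. The same ratio of expected counts was 2.27 in library 2 and 0.736 in library 1. Effective lengths in library 1 were 516 bases for Psme1, 392 bases for Psme2 and 1617 bases for Psme3. In library 2 both genes of this inducible pair lay above the median of 88.9 TPM of the 31 constitutive subunits of rings and regulatory particle, but below the medians of the alpha ring (129.31 TPM) and of the constitutive beta ring (145.01 TPM). In library 1 Psme1, Psme2 and Psme3 lay above the median of these 31 subunits (36.91 TPM) and that of the constitutive beta ring (25.80 TPM). They lay below the median of the alpha ring there (105.51 TPM). The deposited interval of Psme3 in library 1, 32.3 to 39.7 TPM, spanned the median of the 31 subunits. Protein-coding transcripts held 50.7% of the TPM of Psme1, 26.6% of Psme2 and 73.0% of Psme3 in library 1. The order given is thus that of whole genes, and the order of protein-coding transcripts alone was not compared. Psme4, a large activator found in the nucleus, had 27.72 TPM in library 2 and 35.60 TPM in library 1. Psme2b, which is close to Psme2 in sequence, had 12.1 expected counts in library 2 and 9.1 in library 1. Neither these nor the counts of Psme2 are whole numbers, so reads were divided between genes. The posterior SD of the count of Psme2b was small, 0.35 in library 2 and 0.3 in library 1. Its level is uncertain because its counts are few. In the scaled comparison described further on, its log2 fold had an interval of −1.28 to 1.52.

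Psmf1, an inhibitor of the core, had 15.98 TPM in library 2 and 2.47 TPM in library 1. The 4 core assembly chaperones lay between 14.97 TPM (Psmg4) and 19.78 TPM (Psmg1) in library 2, and between 0.26 TPM (Psmg3) and 9.97 TPM (Psmg2) in library 1. These chaperones thus were alike in library 2, as the rings were, and not in library 1. The chaperones of the base, Psmd5, Psmd9 and Psmd10, had 25.29, 12.85 and 8.49 TPM in library 2 and 17.13, 2.98 and 7.08 TPM in library 1. Psmc3ip had 4 counts in library 2 and 0 in library 1.

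**Figure D2:**
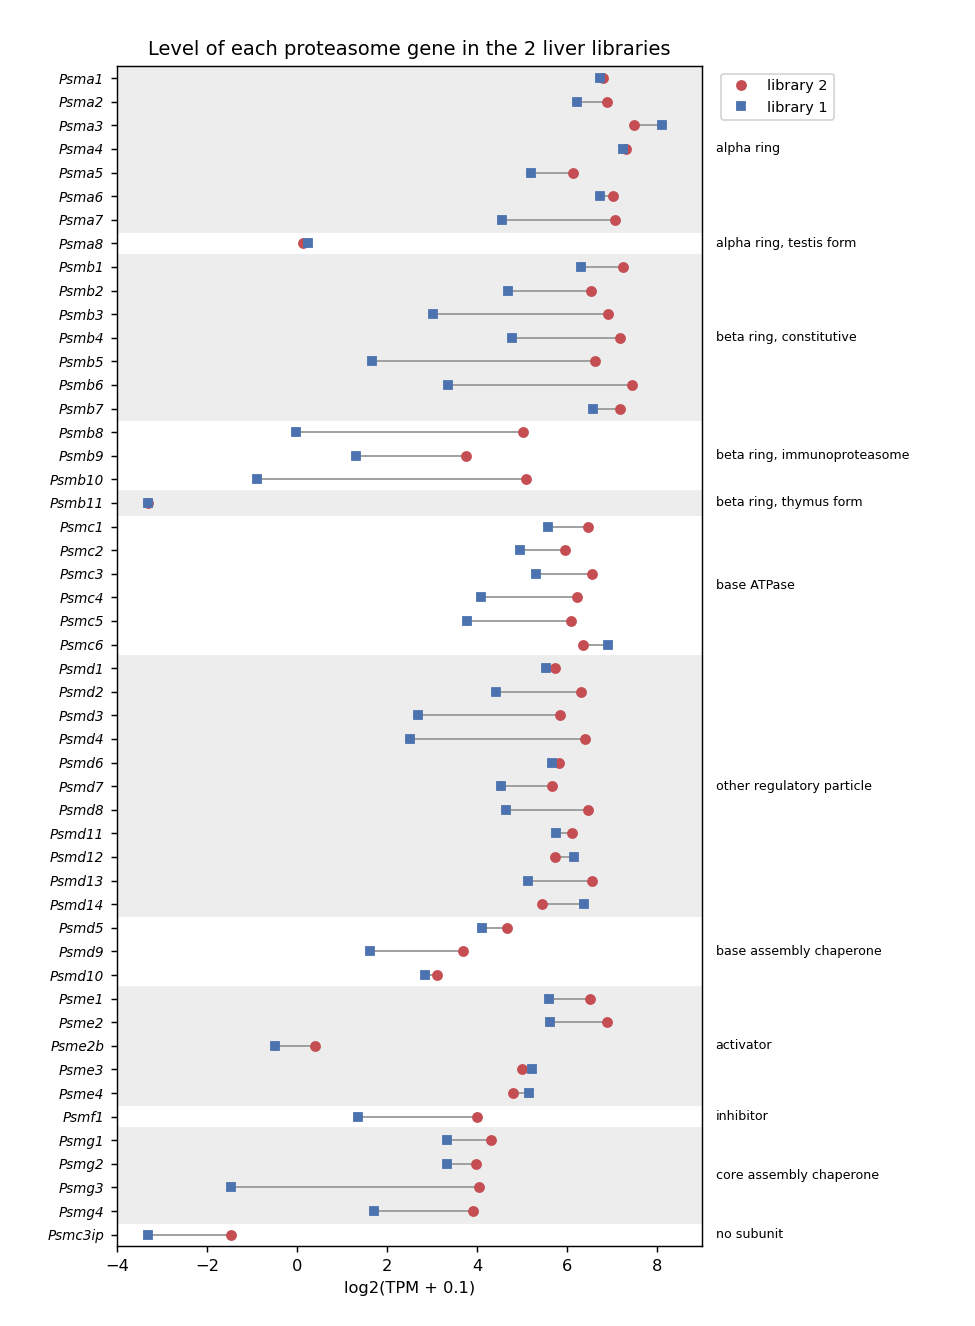
Level of each of the 50 genes as log2(TPM + 0.1), ordered by role; circles are library 2, squares library 1, and grey lines join the values of a gene. In library 2 the subunits of the rings and of the regulatory particle lie between 43.5 and 180.1 TPM, and in library 1 they spread between 3.06 and 275 TPM.

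Subunits of the finished particle occur in fixed proportions as proteins, and their transcript levels were more even in library 2 than in library 1. Across the 31 constitutive subunits the highest level was 4.14 times the lowest in library 2 and 89.9 times in library 1. Their coefficient of variation was 39.7% in library 2 and 101% in library 1. In library 2, 30 of the 31 exceeded 50 TPM, and in library 1, 12 did and 4 were under 10 TPM (Psmb3, Psmb5, Psmd3 and Psmd4). The order changed as well: Psma3 ranked 1 in both libraries and Psma4 ranked 3 in library 2 and 2 in library 1, but Psmb6 ranked 2 in library 2 and 27 in library 1, Psmb5 ranked 12 in library 2 and 31 in library 1, and Psmd14 ranked 31 in library 2 and 7 in library 1.

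Of the whole set, 45 genes reached 10 TPM in library 2 and 32 did in library 1. The 50 genes summed to 3511 TPM in library 2 and 1942 TPM in library 1. Nuclear protein-coding genes held 73.7% of the TPM in library 2 and 37.6% in library 1. Within that class the 50 genes took 0.476% in library 2 and 0.517% in library 1, a mean of 0.497 ± 0.0287% (SD, n = 2). The summed proteasome share of nuclear messages therefore differed little between libraries whose single subunits differed up to 39.4-fold in scaled counts. TPM was higher in library 2 for 42 of the 50 genes and lower for 7, beside a median log2 TPM ratio of 0.84 over all 12728 genes tested.

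To set the libraries beside each other gene by gene, rounded expected counts were scaled by the trimmed mean of M values (TMM), and a gene was called when it differed 2-fold or more. The fold compares 2 libraries of 1 animal and has no replicate check, and its interval is an exact binomial one at 95% that covers counting error only. Of 12728 genes tested, 57.0% were called, 33.0% higher and 24.0% lower in library 2. A minimum of 20 counts over both libraries left 48 proteasome genes, of which 24 were called, with 19 of these higher and 5 lower in library 2, and 24 lay within 2-fold. The share called was thus near that of all genes, and the median log2 fold was 0.18 for proteasome genes and 0.04 for all genes. Psmb11 and Psmc3ip had too few counts. With scaling to the total count instead, which moves the median of all genes by 0.57 on the log2 scale to 0.62, 49.9% of all genes were called, 42.2% higher and 7.73% lower, and 23 proteasome genes were called higher and 0 lower.

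All 3 immunoproteasome subunits were called higher in library 2. Psmb10 had the largest difference of any proteasome gene, a log2 fold of 5.30 with an interval of 4.51 to 6.37. Psmb8 had 3.80 (3.29 to 4.40) and Psmb9 had 3.21 (2.58 to 3.98). Among their constitutive counterparts, Psmb5 had 4.11 (3.70 to 4.57), Psmb6 had 3.25 (3.0 to 3.51) and Psmb7 had 0.11 (0.01 to 0.20). The intervals of Psmb8 and Psmb5 overlapped, those of Psmb9 and Psmb6 overlapped, and those of Psmb10 and Psmb7 did not.

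The remaining calls were spread unevenly over the roles, beside 33.0% higher and 24.0% lower among all genes tested. Median GC content, taken up further on, was 52.2% in the constitutive beta ring and 45.7% in the alpha ring. Of the 7 constitutive beta subunits 5 were called higher, of the 7 alpha subunits 1 was higher (Psma7) and 1 lower (Psma3), of the 6 ATPases 3 were higher and 1 lower, and of the other 11 regulatory particle subunits 3 were higher and 2 lower. Outside the subunits, the activators Psme2 (1.22, higher) and Psme4 (lower), the base chaperone Psmd9 (1.22) and the core chaperones Psmg3 and Psmg4 (1.23) were called, and the inhibitor Psmf1 lay just within 2-fold at 0.998. The intervals of Psmd9 (0.96 to 1.49) and Psmg4 (0.59 to 1.94) reached below 2-fold. Psmg3, a core assembly chaperone, had 174 counts in library 2 and 7 in library 1, a log2 fold of 4.23 (3.24 to 5.65). Psmd3 had 1721 counts in library 2 and 119 in library 1, a log2 fold of 3.53 (3.26 to 3.81). These 2 genes and Psmb10, Psmb5 and Psmb8 were the 5 largest differences.

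At the other end, Psmc6 had 1731 counts in library 2 and 3773 in library 1, a log2 fold of −1.45 (−1.53 to −1.36). Psma3 had 2244 counts in library 2 and 4387 in library 1, a log2 fold of −1.29 (−1.36 to −1.22). Psme4 had 2623 counts in library 2 and 4892 in library 1, and Psmd12 had 1201 counts in library 2 and 2239 in library 1, both with a log2 fold of −1.22. Psmd14 had 884 counts in library 2 and 1449 in library 1, a log2 fold of −1.04 (−1.16 to −0.91). These were the 5 genes called lower in library 2. No immunoproteasome or constitutive beta subunit was among them.

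The folds followed the base composition of the transcripts. GC content, the mean over a gene's annotated protein-coding transcripts, had a median of 50.4% in the 48 proteasome genes tested and 50.6% in the 11980 nuclear protein-coding genes tested. Across the 48 genes, which share both libraries, Pearson's r between GC content and log2 fold was 0.869 and Spearman's rho 0.930, and over 11965 nuclear protein-coding genes they were 0.825 and 0.873. None of the 24 proteasome genes under 50% GC was called higher, and all 7 genes at 55% or more were: Psmb10, Psmb8, Psmb6, Psmb5, Psmd3, Psmg3 and Psmg4. These 7 had a median log2 fold of 3.80, and the 3065 nuclear protein-coding genes in the same range had 2.65. Below 45% GC, 4 of 8 proteasome genes were called lower, with a median of −1.01, against −1.35 for all nuclear protein-coding genes in that range. Between 45% and 50% GC the medians were −0.16 for proteasome genes and −0.56 for all nuclear protein-coding genes. The share called among all genes was not counted within these ranges, so the counts of called proteasome genes have no such background here. Psmc6 had the lowest GC content of all members, 37.0%.

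A smooth curve of fold on GC content was then subtracted from each fold. Of 11965 genes, 22.2% were then 2-fold or more apart, 11.2% higher and 11.0% lower in library 2. Of the 48 proteasome genes, 12 were higher, 0 were lower and 36 were within 2-fold, and the median was 0.40, against −0.02 for all genes. The 12 included all 3 immunoproteasome subunits, at 3.03 for Psmb10, 1.87 for Psmb9 and 1.79 for Psmb8. They also included 4 of the 7 constitutive beta subunits, Psmb3 (1.70), Psmb5 (1.64), Psmb6 (1.24) and Psmb4 (1.21), and from the alpha ring Psma7 (1.26) and Psma2 (1.22). The others were Psmg3 (2.20), Psmd4 (1.53) and Psmd3 (1.06). On this scale Psmb10 still differed from Psmb7 (0.40), while Psmb8 and Psmb5 differed by 0.15 and Psmb9 and Psmb6 by 0.62. Psma2 had a log2 fold of −0.23 before the subtraction, at 41.3% GC. Its GC content came from GENCODE M21, where Psma2-201 has 2911 bases, against a deposited length of 944 bases. Among other genes, Psmb1-201 had 1758 against 1036 bases and Psmc6-201 had 2234 against 1564. The effect of these lengths on the subtracted values was not tested.

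**Figure D3:**
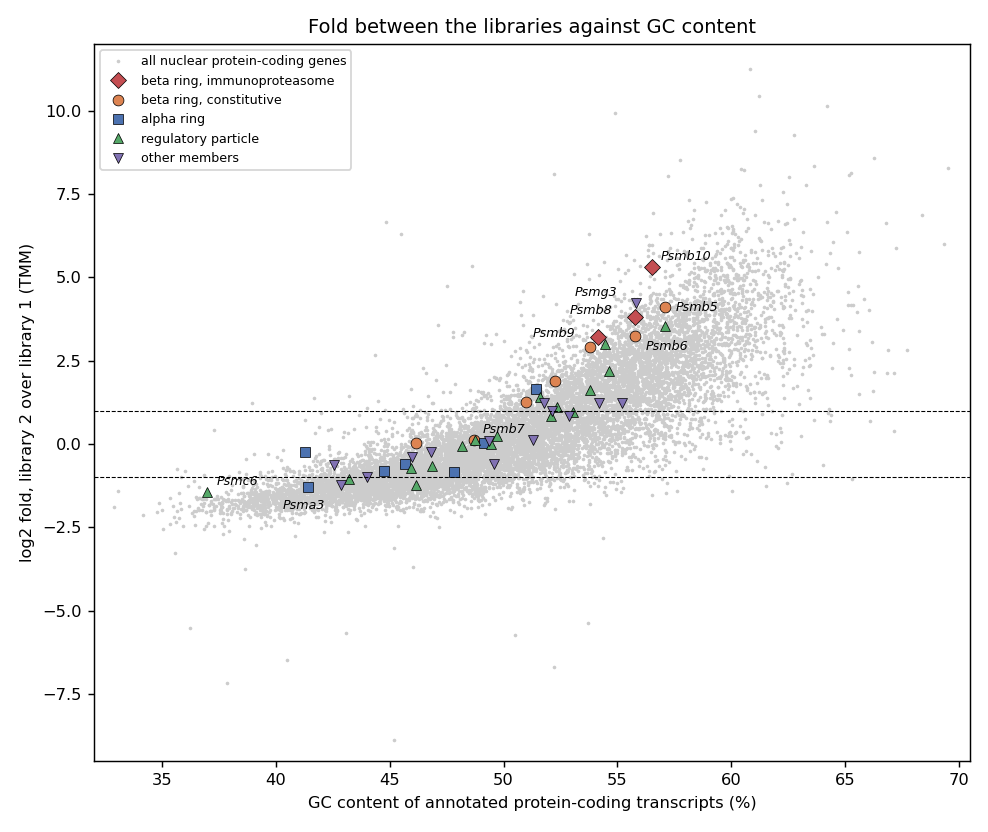
Log2 fold of scaled counts, library 2 over library 1, against the GC content of each gene's annotated protein-coding transcripts in percent; grey points are nuclear protein-coding genes, coloured symbols proteasome genes by role, and dashed lines mark 2-fold. Immunoproteasome subunits lie between 54.2% and 56.5% GC with folds of 3.21 to 5.30, whereas Psmb7 lies at 48.7% GC with a fold of 0.11.

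The transcripts counted for a gene also differed between the libraries. The deposited isoform share gives each transcript's percentage of its gene's TPM, and it was compared in genes that had 2 or more annotated transcripts, averaged 10 TPM or more and were above 0 in both libraries. Among 3520 such genes, the share of the leading transcript differed by 10 points or more in 57.0%, and another transcript led in the other library in 31.8%. Among the 32 proteasome genes that qualified, 17 differed by 10 points or more and 10 had another leading transcript. The median difference was 12.2 points for the proteasome genes and 13.4 points for all. In 15 of the 17 the leading transcript had the higher share in library 2. The direction was not counted among all 3520 genes, so this number has no background beside it.

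Of the catalytic subunits that qualified, Psmb7-201 held 97.8% of its gene in library 2 and 55.2% in library 1. Psmb7-202, annotated as a retained intron, held 2.19% in library 2 and 44.8% in library 1. Psmb6-201 held 94.6% in library 2 and 58.5% in library 1. Psmb8-201 was the exception, with 51.1% in library 2 and 83.9% in library 1, while Psmb8-203 held 48.0% in library 2 and 0% in library 1. Psmb9 was too low to qualify: Psmb9-204 held 86.9% in library 2 and 10.5% in library 1, and Psmb9-202, of 433 bases, held 0% in library 2 and 88.6% in library 1, there from 12 counts. The short transcript accompanies the shorter effective length of Psmb9 in library 1 given above.

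The largest shift was that of Psmc3-202, with 78.3% in library 2 and 1.57% in library 1, and Psmc3-205, of 429 bases and annotated as a processed transcript, held 0% in library 2 and 62.4% in library 1. The effective length of Psmc3 was accordingly 1266 bases in library 2 and 351 bases in library 1. Psmd3-201 had 92.5% in library 2 and 16.6% in library 1, and Psme2-208 had 84.9% in library 2 and 20.1% in library 1. Psme1-208 had 88.9% in library 2 and 24.8% in library 1, so both genes of the activator cap shifted by over 60 points. Psmd13-209 was at 0% in library 2 and 63.2% in library 1. Psmd14-201, Psmc4-201 and Psmb2-201 held 91.8% to 97.5% in library 2 and 39.1% to 47.8% in library 1.

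Most other genes kept 1 transcript: in 13 of the 32 the leading transcript held 90% or more in both libraries, among them Psma1, Psma4, Psma5, Psma6, Psmc2, Psmc5, Psmd1, Psmd2, Psmd6 and Psmd8. Taken as the one with the highest mean share over both libraries, the leading transcript was annotated as protein-coding in 31 of the 32. Within library 1 alone, transcripts of other types led in Psmc3, Psmc4, Psmd14, Psme1 and Psme2, with 48.6% to 62.4% of the gene, and within library 2 the transcript of 123 bases led in Psmd13 with 43.3%. The exception over both libraries was Psma3, the most abundant gene, whose Psma3-201, annotated for nonsense-mediated decay, held 48.6% in library 2 and 15.9% in library 1. Protein-coding transcripts held 17.7% of Psma3 in library 2 and 38.7% in library 1. Effective lengths were at least 10% shorter in library 1 for 15 of the 50 genes and in library 2 for 3, which bears on every TPM above.

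**Figure D4:**
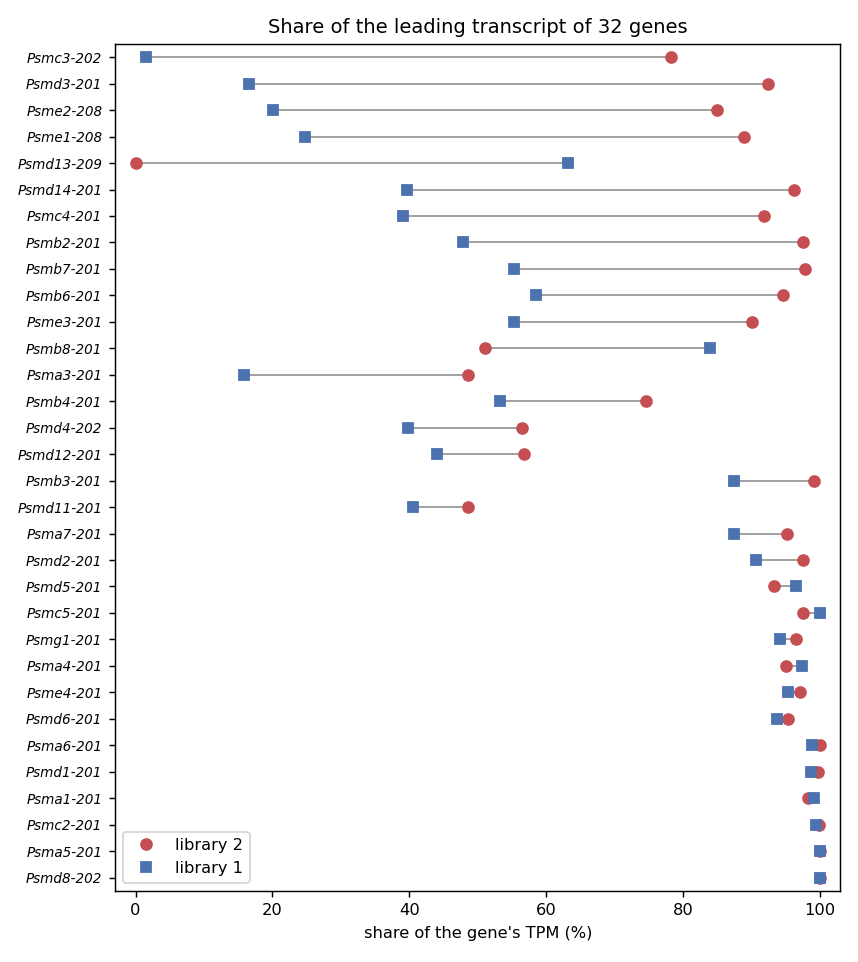
Share of the gene's TPM, in percent, held by the leading transcript of each of the 32 proteasome genes that qualified, ordered by the size of the difference; circles are library 2, squares library 1. The top 7 rows differ by over 50 points, and from Psmd11-201 downwards the libraries lie within 10 points of each other.

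Whether strand was used in counting is not given in the sources used here, and the effect of overlapping genes on the counts was not tested. A gene on the opposite strand overlapped 19 of the 50 genes, a protein-coding one in 10. Psmb9 overlaps Tap1, a peptide transporter gene, by 212 bases on chromosome 17, and Psmb8 lies 9956 bases from Psmb9 there, within the major histocompatibility complex. Psme1 and Psme2 are neighbours 5911 bases apart on chromosome 14. For 39 of the 50 genes the deposited posterior SD of the count was 0 in both libraries.

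Other genes of the pathway that lack the prefix were read from a list of 29, of which 28 matched and were tested. Of these, 7 were called higher in library 2, 8 lower and 13 within 2-fold, with a median log2 fold of −0.22, beside 33.0% higher and 24.0% lower among all genes tested. Ubb, which codes for a chain of ubiquitin units, had 528.44 TPM in library 2 and 22.81 TPM in library 1. Rps27a, which codes for ubiquitin fused to a ribosomal protein, had 343.85 TPM in library 2 and 242.24 TPM in library 1. Ubb was therefore the higher of the pair in library 2, and Rps27a in library 1. Pomp, the chaperone that matures the core particle, had 179.53 TPM in library 2 and 58.35 TPM in library 1. Vcp, the ATPase that extracts ubiquitinated proteins from complexes and membranes, had 141.08 TPM in library 2 and 61.07 TPM in library 1.

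Of 9 genes of antigen processing and interferon response, 4 were called higher in library 2 and 2 lower, beside 33.0% higher and 24.0% lower among all genes tested. The 2 lower ones were B2m, the light chain of class I molecules, with a log2 fold of −1.27, and Erap1, a peptide-trimming enzyme, with −1.45. Tap1 had 8.22 TPM in library 2 and 1.07 TPM in library 1, and Irf1, a transcription factor induced by interferon, had 26.22 TPM in library 2 and 4.85 TPM in library 1. After the GC curve was subtracted, B2m (0.20), Erap1 (−0.47), Tap1 (−0.38) and Irf1 (0.17) all lay within 2-fold. On that scale Tap2 (1.73) and Isg15 (3.15) were past 2-fold higher in library 2 and Tapbp (−2.88) lower. Levels of the 9 genes ranged between 8.22 and 2688 TPM in library 2 and between 0.42 and 3476 TPM in library 1. Tap1, beside Psmb9 and Psmb8, was thus expressed at a level below both in library 2 and between them in library 1. The 6 hepatocyte markers, with Alb the highest, had 875 to 49848 TPM in library 2 and 422 to 22690 TPM in library 1, above every marker of the other cell types read, as the label liver implies.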

How the data were processed

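The authors deposited a gene and a transcript table for each of 2 technical libraries. Per the file headers, these hold deposited expected counts (estimated, not normalised), deposited TPM and FPKM values (scaled for length and depth), deposited isoform shares in percent of the gene's TPM, and posterior intervals of TPM. Per the deposited descriptions they rest on mm10 and annotation M4; aligner, quantifier and strand use: not given in the sources used here. FPKM values carry no result. Symbols, coordinates, sequences and GC content came from GENCODE M21 on the same assembly; 42462 of 43346 Ensembl genes had a symbol.

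Genes with 20 or more expected counts over both libraries were compared after rounding and TMM scaling (edgeR 4.0.16, R 4.3.3; factors 1.22 in library 2 and 0.818 in library 1). Log2 folds set library 2 over library 1, adding a prior count of 0.5. With 1 library on each side no residual degrees of freedom remain, so no p is given. Intervals are exact binomial at 95%; intervals and floors of 3 counts cover counting error only. The GC curve was a loess fit (span 0.3) on nuclear protein-coding genes. The fold step was tested on simulated counts. Spread was taken on log2(TPM + 0.1). Every prefix gene was described; full values were given for catalytic subunits, the 5 largest and 5 smallest folds and the largest isoform shifts. Alternatives were total count scaling, DESeq2 1.42.0 size factors, TPM ratios, other filters, prior counts and thresholds, and each library alone. Members and lists were chosen with earlier results of these data known. Some genes of the pathway list are not reported here by name.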

Additional observations from a re-analysis of the deposited data

How the results depend on the processing

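Of 48 proteasome genes, 24 were called at 2-fold. This number was 12 after the GC curve was subtracted, 13 at a threshold of 3-fold, 36 at 1.5-fold, and 23 to 26 under other scalings, filters and prior counts. The median log2 fold of 0.18 was 0.76 with total count scaling, 1.00 as a ratio of deposited TPM and 0.40 after the GC curve; the cause was not tested beyond what each construction changes. The share of 0.497% of nuclear protein-coding TPM was 0.273% of all TPM and 0.339% of nuclear protein-coding expected counts. The log2 ratio of immunoproteasome over constitutive catalytic subunits was −3.64 and stayed negative under every alternative run: −2.10 as the median of the 3 pairs, −3.25 over protein-coding transcripts, −3.36 from expected counts, −2.39 without replicate 1 and −4.88 without replicate 2. The spread among the constitutive subunits, an SD over genes that averaged 1.03 on the log2 scale over both libraries, was 0.57 without replicate 1 and 1.5 without replicate 2. Without replicate 1 and without replicate 2 the share was 0.476% and 0.517%. The 17 genes whose leading transcript differed by 10 points were 14 to 22 under the alternatives. No paired analysis was possible because both libraries form 1 group. The data hold 2 technical libraries of 1 animal. Low counts limit Psmb8, Psmb9, Psmb10, Psme2b, Psmg3 and Psmg4, which had 7 to 30 counts in library 1.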

Other observations

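Processed pseudogenes that carry a proteasome symbol had few or no counts. Psmb5-ps, Psmb6-ps and Psmb6-ps2 had 0 expected counts in both libraries, and Psmb7-ps2 had 0 counts in library 2 and 2 in library 1.

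Markers of cell types other than hepatocytes lay below every hepatocyte marker in both libraries. The 4 endothelial markers summed to 31.5 TPM in library 2 and 12.5 TPM in library 1, the 3 stellate cell markers to 125 TPM and 127 TPM, and the 3 bile duct markers to 4.81 TPM and 1.78 TPM. Most of the stellate sum was Dcn, with 118.49 TPM in library 2 and 120.92 TPM in library 1. Lrat had 4.53 TPM in library 2 and 6.01 TPM in library 1, and Des had 1.89 TPM and 0.1 TPM.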
